A study of Mus musculus with 39 samples.

Results

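The 10 genes described here belong to the amino acid stress response and to serine synthesis, and were measured in sorted mouse astrocyte preparations: Atf4, Atf5, Ddit3, Trib3, Chac1, Sesn2 and Asns of the ATF4 pathway, and Phgdh, Psat1 and Shmt2 of serine and glycine synthesis. They were chosen by pathway membership, with earlier results of these data in view and with Asns named in the choice. Which measured values drew attention to Asns is not recorded in the sources used here. Its differences are therefore given as a description, and its p-values are not read, though pooled counts of members include it. No difference of the other members stands as independent support for the choice. The 10 symbols matched 11 of 55401 gene rows, because 2 overlapping rows carry the symbol Ddit3.

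The 39 RNA sequencing libraries came from male mice of a chronic social defeat study, in which mice repeatedly exposed to an aggressor are later classed as susceptible or resilient, with controls beside them. The nucleus accumbens (NAc), a reward region of the ventral striatum, gave 7 control, 8 susceptible and 7 resilient libraries. The tissue labelled PFC, read here as prefrontal cortex, gave 6 control, 6 susceptible and 5 resilient libraries. The sources used here give no strain, age or number of defeat days. Astrocytes were pulled from tissue punches with ACSA-2 microbeads, which bind a surface epitope of these cells. The protocol text names NAc punches even for the 17 libraries labelled PFC. Each library has its own mouse number. Neighbouring numbers share their condition across the regions, so a PFC and a NAc library may come from 1 mouse, which the labels do not settle. All p-values measure the spread between these libraries.

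ATF4 is a transcription factor whose protein is made when phosphorylation of the initiation factor eIF2 slows general translation, as happens when amino acids run short or unfolded protein builds up. It binds with other basic leucine zipper proteins to composite C/EBP-ATF elements and turns on genes for amino acid synthesis, transport and tRNA charging, as well as its own regulators. Because much of this control acts on translation, the level of Atf4 RNA is not a measure of ATF4 protein. Phgdh, Psat1 and the phosphatase Psph make serine from a glycolytic intermediate, and in the brain this route is known to run mainly in astrocytes, which pass serine to neurons.

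The sequence through which ATF4 is known to act was looked for in the promoters of the members, from 250 bases before to 50 bases after each RefSeq start (GRCm38.p6). The core of the C/EBP-ATF element was written as TGATGNAA and searched on both strands. It was present in 3 of the 12 promoter windows of the 10 members, against 3.97% of 32851 windows of all genes. The cyclic AMP response element TGACGTCA, the site of CREB, was in none of the 12 windows and in 1.79% of all windows. The search took a single exact pattern in a short window, so a member without a match may still carry the element. The 3 matches are shown with 30 bases on the strand of the gene and the match in capitals.
Asns, chr6:7693214-7693243, minus strand, match beginning 23 bases before the start: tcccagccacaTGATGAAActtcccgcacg
Chac1, chr2:119351038-119351067, plus strand, match beginning 193 bases before the start and read on the opposite strand: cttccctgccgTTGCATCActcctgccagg
Trib3, chr2:152344028-152344057, minus strand, match beginning at base 15 of the transcript and read on the opposite strand: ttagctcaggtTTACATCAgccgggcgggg
A match of letters is a description of the window and no binding was measured.

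Library totals ran from 941450 to 37339379 counts with a median of 11264270, and NAc control replicate 3, PFC susceptible replicate 6 and PFC resilient replicate 3 were the shallowest. Astrocyte identity was checked with Atp1b2, which encodes the protein that carries the ACSA-2 epitope and which lay at least 23.1 times over the background cover described next in every library. The glutamate transporter gene Slc1a3 lay at least 5.73 times over it. Aldh1l1, a further astrocyte marker, averaged 1.01 to 1.31 FPKM in the groups and had a lowest ratio to background of 0.935, in a NAc resilient library. Counts were taken over whole gene spans, introns included, so reads spread over the genome add to every gene. This background was measured as the FPKM (fragments per kilobase of gene span per 1000000 counts) of 1479 odorant, vomeronasal and trace amine receptor genes, which are silent in most tissues. It averaged 0.410 FPKM and ran from 13.4% to 80.9% of even cover, the level if all counts were spread evenly over the summed gene spans. The lowest values were those of PFC susceptible replicate 1 (13.4%), PFC resilient replicate 2 (18.98%), PFC control replicate 2 (21.6%) and PFC resilient replicate 1 (24.5%).

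Atf4 stood out by its level per kilobase of span, with a mean of 6.46 FPKM over the libraries, 15.8 times the mean background. The serine synthesis genes followed: Phgdh, which makes the first committed intermediate of serine synthesis, averaged 2.15 FPKM, and Psat1, the aminotransferase after it, averaged 1.67. Ddit3 (CHOP, a stress-induced factor) had a mean of 1.45 FPKM. Shmt2, the mitochondrial enzyme that turns serine into glycine and a one-carbon unit, had a mean of 1.32 FPKM. Chac1, which degrades glutathione, had a mean of 1.2 FPKM. The lowest were Atf5 at 0.840, Trib3 at 0.744, Sesn2 at 0.686 and Asns at 0.632 FPKM, the last 1.54 times the mean background. Long genes with mostly intronic spans are understated on this scale, which bears on Asns (18.086 kb), Sesn2 (18.47 kb), Phgdh (26.821 kb) and Psat1 (42.66 kb) more than on Atf4 (2.358 kb).

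Detection over background divided the members. Atf4, Phgdh and Psat1 were at least 2 times over the background of their own library in 38 of 39 libraries each, Ddit3 and Shmt2 in 35, and Chac1 in 31. Atf5 reached that level in 16 libraries, Trib3 in 15, Sesn2 in 10 and Asns in 5. For these 4 genes the level of the whole span was of the same order as the background, and how much of their counts is background was not tested.

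**Figure D1:**
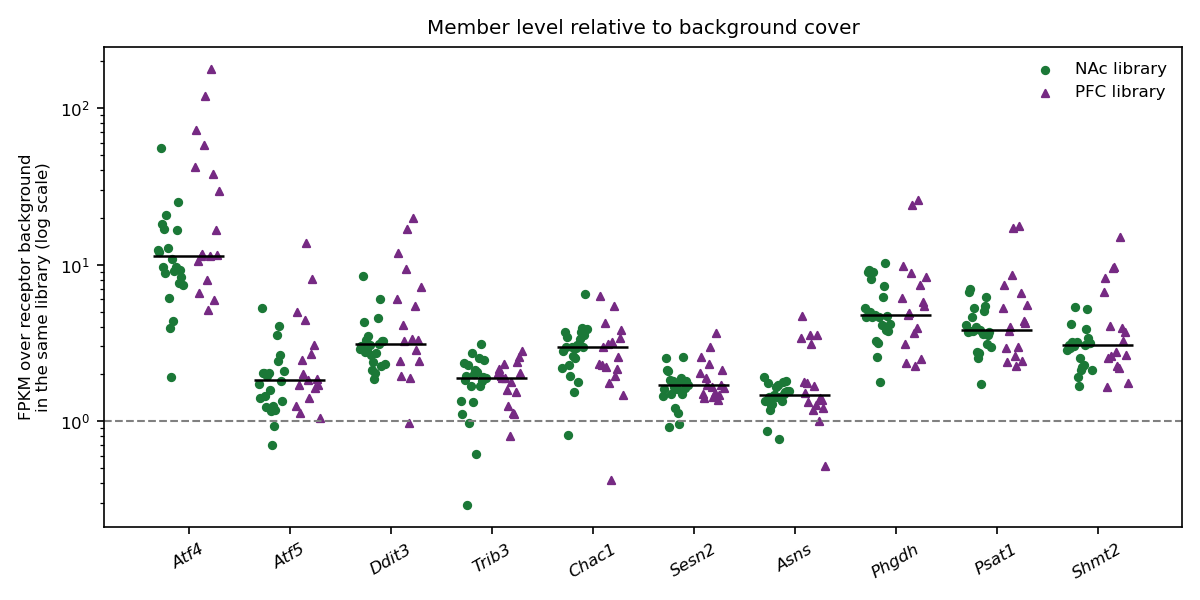
Level of the 10 members over the receptor background of the same library (ratio, log scale); each circle is a NAc library, each triangle a PFC library, the bar marks the median and the dashed line a ratio of 1. Atf4, Phgdh and Psat1 lie over 2 in all but 1 library each, while Asns does so in 5 of 39.

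The loci of the members are given in GENCODE M21 on mm10. Atf4 (ENSMUSG00000042406.8) spans chr15:80255184-80257541, Asns (ENSMUSG00000029752.12) chr6:7675169-7693254, Phgdh (ENSMUSG00000053398.11) chr3:98313170-98339990, Psat1 (ENSMUSG00000024640.9) chr19:15904678-15947337 and Shmt2 (ENSMUSG00000025403.5) chr10:127517123-127522444. Trib3 (ENSMUSG00000032715.9) spans chr2:152337422-152344032, Chac1 (ENSMUSG00000027313.3) chr2:119351229-119354381, Sesn2 (ENSMUSG00000028893.8) chr4:132492032-132510501 and Atf5 (ENSMUSG00000038539.15) chr7:44812256-44816658. The strand setting of the counting is not given in the sources used here, so reads from opposite genes cannot be told apart where they overlap. Atf5 shares 571 bases with Nup62 and 272 with Il4i1, and Psat1 shares 556 with Gm3329, all on the opposite strand. Sesn2 shares 6089 with Gm12981, which lies on the same strand, so no strand setting would separate them. Ddit3 (ENSMUSG00000025408.15, chr10:127290774-127296288) holds a second Ddit3 row within its span (ENSMUSG00000116429.1, chr10:127290829-127293753). The inner row had at most the count of the outer one in 39 of 39 libraries, and its counts came to 33.0% of the outer counts. The outer row stands for Ddit3 below.

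Atf4 RNA varied widely among libraries of the same group. In NAc the control libraries ran from 4.05 to 15.3 FPKM with a median of 5.51, the susceptible ones from 3.59 to 7.98 with a median of 3.94, and the resilient ones from 0.951 to 8.12 with a median of 3.17. The highest NAc control value, 15.3, belongs to replicate 3 and rests on 34 counts. Of the 8 susceptible and 7 resilient libraries, 4 each lay under every control, and the groups overlapped. In PFC the controls ran from 3.34 to 12.0 FPKM (median 5.28) and the susceptible libraries from 2.97 to 18.3 (median 8.77). The 5 PFC resilient libraries had 10.9, 17.5, 3.70, 2.79 and 5.25 FPKM. The 4 libraries of lowest background had 18.3, 17.5, 12.0 and 10.9 FPKM, the highest of their groups or, in resilient replicate 1, the second highest.

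Atf5, a close relative of ATF4 that acts in mitochondrial stress, was lowest in resilient NAc. There it had 0.649 ± 0.167 FPKM (SD, n = 7), against 0.805 ± 0.303 (n = 7) in NAc controls and 0.976 ± 0.303 (n = 8) in NAc susceptible mice. Of the 8 susceptible libraries 5 were above every resilient one, while 1 resilient library was below every susceptible one. In PFC the resilient libraries had 0.835, 2.01, 0.850, 0.771 and 1.24 FPKM, the second of which is the low-background replicate 2. PFC controls were at 0.749 ± 0.240 (n = 6) and PFC susceptible mice at 0.762 ± 0.215 (n = 6).

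Ddit3 ran from 0.452 to 2.52 FPKM over the libraries. Group means in NAc were 1.48 ± 0.384 FPKM in controls (n = 7), 1.41 ± 0.291 in susceptible (n = 8) and 1.21 ± 0.169 in resilient mice (n = 7). In PFC they were 1.5 ± 0.353 (n = 6), 1.70 ± 0.528 (n = 6) and 1.45 ± 0.762 (n = 5) in the same order. Every pair of groups overlapped.

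Trib3, a pseudokinase that restrains ATF4 and CHOP, was tightly spread in susceptible NAc, from 0.661 to 1.08 FPKM with a median of 0.936. NAc controls ran from 0.130 to 1.04 (median 0.633) and NAc resilient libraries from 0.378 to 1.41 (median 0.733). Of the 7 controls 5 lay under every susceptible library. In PFC, controls ran from 0.358 to 0.989 FPKM (median 0.892) and susceptible libraries from 0.114 to 1.19 (median 0.925), while the 5 resilient ones had 0.298, 0.182, 0.377, 0.975 and 0.523. Those counts are small: the PFC susceptible library at 0.114 FPKM had 6 counts.

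Chac1 was also highest in susceptible NAc, where it ran from 0.842 to 2.85 FPKM with a median of 1.44. NAc controls ran from 0.363 to 1.55 (median 1.03) and NAc resilient libraries from 0.759 to 1.91 (median 1.26). Only 3 of the 8 susceptible libraries exceeded every control. PFC controls ran from 0.656 to 1.73 FPKM (median 1.09) and PFC susceptible libraries from 0.200 to 1.62 (median 0.996). The PFC resilient libraries spread most, at 0.583, 0.255, 0.198, 1.75 and 2.51.

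Sesn2, a leucine sensor that holds back mTORC1, had group means that lay close together. Its 6 group means lay between 0.624 ± 0.177 FPKM in PFC resilient (n = 5) and 0.736 ± 0.0971 in NAc resilient mice (n = 7). Each difference was smaller than the SD of at least one of the groups.

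Asns, which makes asparagine from aspartate and glutamine and is a standard readout of ATF4 activity, is given here as a description. The PFC control libraries had 0.953, 0.780, 0.899, 0.762, 0.713 and 0.592 FPKM in the order of their replicate numbers. The PFC susceptible libraries had 0.362, 0.332, 0.705, 0.589, 0.517 and 0.181, and the PFC resilient ones 0.668, 0.455, 0.552, 0.922 and 0.581. Thus 5 of 6 susceptible libraries lay under every PFC control, and replicate 3 overlapped them. The lowest, replicate 6, rests on 4 counts in one of the shallowest libraries. In NAc the controls ran from 0.235 to 0.790 (median 0.611), susceptible libraries from 0.470 to 0.809 (median 0.693) and resilient libraries from 0.473 to 0.906 (median 0.715). The lowest NAc control is replicate 3, again with 4 counts.

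In the model of the counts, Asns in PFC was lower by a log2 fold change of -0.76 ± 0.24 (SE) in susceptible against control mice and of -0.54 ± 0.26 against resilient mice. In NAc the same comparisons gave 0.08 ± 0.14 and -0.01 ± 0.14. The difference of the susceptible effect between regions was 0.86 ± 0.28. The PFC value against controls was -0.40 with weighted libraries in limma-voom, and nothing is supported with any of these values.

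Among the serine synthesis genes, Phgdh and Psat1 varied together from library to library. In NAc, Phgdh ran from 2.12 to 3.65 FPKM in controls (median 2.24), from 1.66 to 3.22 in susceptible (median 2.08) and from 1.10 to 3.53 in resilient mice (median 1.69). Of the 7 resilient libraries 5 lay under every control, while resilient replicate 1 reached 3.53. In PFC the controls ran from 1.19 to 2.19 FPKM (median 1.66) and susceptible libraries from 1.25 to 2.93 (median 2.49), with 5 of 6 susceptible libraries over every control. The resilient ones had 1.67, 3.50, 1.72, 1.22 and 1.82.

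Psat1 had the same order of NAc medians. NAc control libraries ran from 1.69 to 2.41 FPKM (median 1.73), susceptible ones from 1.47 to 2.16 (median 1.67) and resilient ones from 1.07 to 2.08 (median 1.43), with 5 of 7 resilient libraries under every control. In PFC, controls ran from 1.21 to 1.79 (median 1.48) and susceptible libraries from 1.21 to 2.19 (median 1.85), with 5 of 6 over every control. The PFC resilient libraries had 1.60, 2.48, 1.21, 1.22 and 1.37 FPKM. Shmt2, which works on serine after it is made, differed little between groups, and its 6 group means lay between 1.28 ± 0.399 (NAc resilient, n = 7) and 1.36 ± 0.368 FPKM (PFC control, n = 6).

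**Figure D2:**
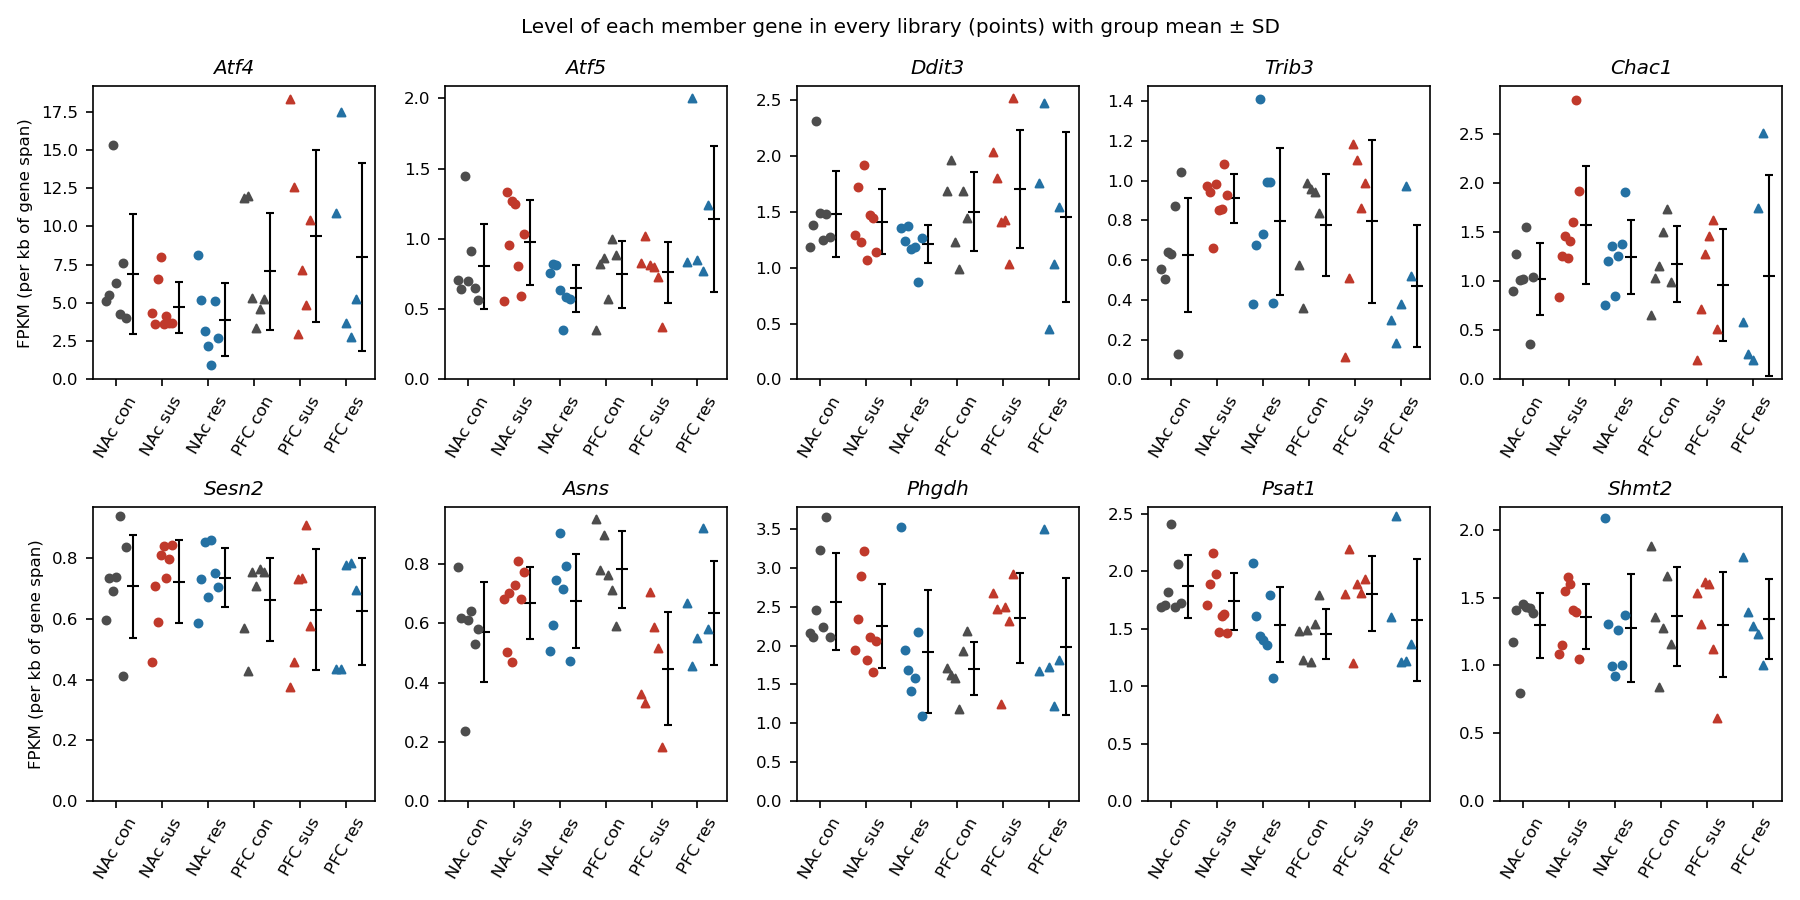
FPKM per kilobase of gene span of each member in every library (circles NAc, triangles PFC) with the group mean ± SD beside the points. Asns is lowest in the PFC susceptible libraries, Phgdh and Psat1 are lower in most NAc resilient than in NAc control libraries, and the groups of every member overlap.

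For each pair of conditions in a region, and for the same condition in both regions, the 10 members give 90 comparisons of groups, and in 0 of them were the groups separate. The same was not counted over all genes, so nothing particular to the members is read from it. In edgeR, 0 of 10 members were called at an adjusted p under 0.05 in any of 11 comparisons. The share of all genes called was 0.0% in 9 of the 11 and 0.00262%, a single gene, in the comparison of NAc with PFC in control and again in susceptible mice. Counted at an unadjusted p under 0.05, the 11 comparisons gave 13 of 110 member values in edgeR, 18 in DESeq2, 17 in limma-voom and 14 in limma-trend on log2(FPKM + 0.5). Of the 13 in edgeR, 3 are Asns, from which nothing is read, and the Asns part of the other counts was not taken out. Of all genes, 4.19% of the values were at that p in edgeR, 5.15% in DESeq2, 6.36% in limma-voom and 6.38% in limma-trend. The comparisons share libraries and some members vary together, so the member values are not independent. No excess over all genes is read from these counts. Neither DESeq2, limma-voom nor limma-trend called a member, where DESeq2 gave no adjusted p for 8 of the 110 values.

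In susceptible against control NAc, the 2 largest differences were toward higher levels of Chac1 and Trib3, both targets of ATF4. Chac1 differed by a log2 fold change of 0.50 ± 0.23 (SE), Trib3 by 0.46 ± 0.24 and Atf5 by 0.38 ± 0.23, while Atf4 itself was at -0.45 ± 0.38. The smallest adjusted p of the members was 1.00 in edgeR, so none passed. At an unadjusted p under 0.05 stood 1 of 10 members, against 3.02% of 35943 genes tested. The median member was at -0.04 and the median of all genes at -0.00. Oligodendrocyte markers were lower in the same comparison for 18 of 18 genes (median -0.70), astrocyte markers for 18 of 20 (median -0.19), and none of those markers was at 0. With 2 components of the markers of other cell types in the model, Chac1 came to 0.30 and Trib3 to 0.26.

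In resilient against control NAc, 7 of 10 members were lower. Psat1 differed by -0.37 ± 0.16, Phgdh by -0.50 ± 0.26, Atf4 by -0.68 ± 0.40 and Ddit3 by -0.29 ± 0.18, with a smallest adjusted p of 0.756 in edgeR. At an unadjusted p under 0.05 stood 1 of 10 members, against 6.14% of all genes. The member median was -0.17 and that of all genes 0.01. Astrocyte markers were lower for 19 of 20 genes (median -0.54), and their summed level ran from 5847 to 13624 CPM (counts per 1000000 counts) in controls and from 3380 to 12920 in resilient mice. Oligodendrocyte markers were lower for 18 of 18 (median -0.94), with 1037 to 5331 CPM in controls and 867 to 2426 in resilient mice, and background was 64.4% ± 10.5 (SD, n = 7) of even cover in resilient mice against 53.0% ± 9.23 (n = 7) in controls. With background as a covariate Atf4 came to -0.20, Phgdh to -0.17 and Psat1 to -0.11. With the marker components they came to -0.08, -0.07 and -0.07. In bulk samples fewer cells of a type and less RNA per cell cannot be told apart.

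Between susceptible and resilient NAc, 8 of 10 members were higher in susceptible mice, led by Atf5 at 0.56 ± 0.22, Chac1 at 0.39 ± 0.22 and Ddit3 at 0.24 ± 0.17. The smallest adjusted p was 0.998 in edgeR. At an unadjusted p under 0.05 stood 1 of 10 members against 2.90% of all genes, with a member median of 0.21 and 0.02 over all genes. Astrocyte markers were higher for 20 of 20 genes (median 0.33) and oligodendrocyte markers for 18 of 18 (median 0.24), and their part in these values was not tested beyond the covariates. The comparison shares its libraries with the 2 before it. With background as a covariate Atf5 came to 0.35 and Ddit3 to 0.04.

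In PFC the folds of Phgdh and Psat1 were positive in both groups of stressed mice. Against controls, susceptible mice had Phgdh at 0.53 ± 0.31, Psat1 at 0.37 ± 0.26 and Shmt2 at 0.02 ± 0.30. Resilient mice had 0.38 ± 0.33, 0.28 ± 0.27 and 0.10 ± 0.32 in the same order. The median Psat1 level of the PFC resilient libraries, 1.37 FPKM, lay under that of controls, 1.48. Their highest Psat1 value, 2.48 FPKM, belongs to replicate 2. Astrocyte markers were higher for 20 of 20 genes in both comparisons (medians 0.73 and 0.69), and their part in these values was not tested beyond the marker components of other cells, with which Phgdh came to 0.31 in susceptible and to -0.00965 in resilient mice. In resilient against control PFC, Atf5 was at 0.75 ± 0.36 and Trib3 at -0.60 ± 0.39. Without PFC resilient replicate 2, Atf5 came to 0.32 and Phgdh to -0.05. Between susceptible and resilient PFC, Atf5 was at -0.63 ± 0.37 and Trib3 at 0.60 ± 0.40, and Atf5 came to -0.20 without the same library.

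The 3 PFC comparisons tested 32167 genes and none passed. With Asns left aside, no member was at an unadjusted p under 0.05 in susceptible against control mice, beside 0.482% of all genes. In resilient against control mice 0 of 10 members were, beside 0.597%, and in susceptible against resilient mice 0 of 10, beside 0.572%. The member medians were 0.07, 0.11 and 0.02, beside -0.01, -0.02 and 0.00 for all genes. With the replicate block the counts at that p were 2, 0 and 1 of 10, beside 2.55%, 1.94% and 1.56% of all genes, with Asns in both counts above 0. Nothing is read from the counts that hold Asns.

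**Figure D3:**
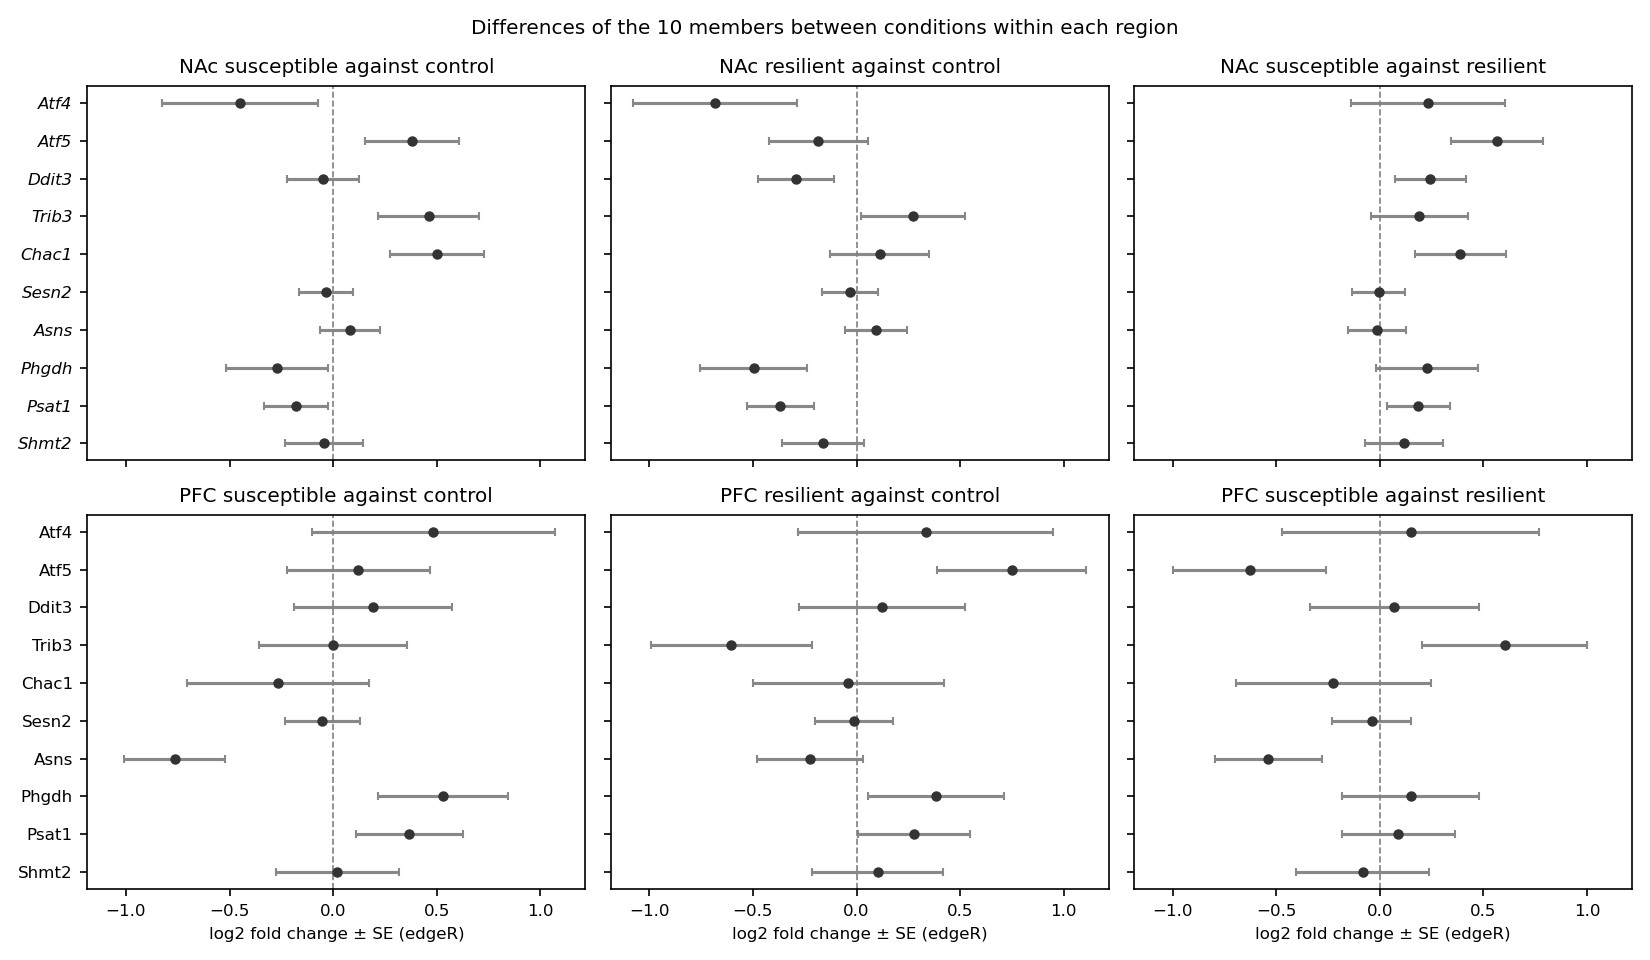
Log2 fold change (edgeR, x axis) with SE (bars) of the 10 members in the 6 comparisons of conditions within NAc (upper row) and PFC (lower row). Asns in PFC susceptible against control mice lies at -0.76, Psat1 in NAc resilient against control mice at -0.37, and no value passed an adjusted p of 0.05.

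The regions were compared condition by condition. In control mice Asns was lower in NAc than in PFC by -0.48 ± 0.19, while Phgdh was at 0.53 ± 0.29 and Psat1 at 0.30 ± 0.21. In susceptible mice Atf4 was lower in NAc by -1.26 ± 0.50, with Asns at 0.38 ± 0.19 and Chac1 at 0.53 ± 0.32. In resilient mice Atf5 was lower in NAc by -1.05 ± 0.30, Atf4 by -1.37 ± 0.54 and Ddit3 by -0.62 ± 0.30. The smallest adjusted p of the members was 0.718 in susceptible and 0.280 in resilient mice in edgeR, and none passed in controls. With Asns left aside, no member was at an unadjusted p under 0.05 in control mice, beside 5.04% of 38171 genes. In susceptible and resilient mice 1 and 3 of 10 members were, beside 6.23% and 14.6%.

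The 3 transcription factors that were lower in resilient NAc than in resilient PFC went with other measures of the libraries. Astrocyte markers were lower for 20 of 20 genes in that comparison (median -1.04), and neuron markers for 13 of 18 (median -0.72). With background as a covariate Atf4 came to -0.09, Ddit3 to -0.01 and Atf5 to -0.62. Without PFC resilient replicate 2, whose background was 18.98%, they came to -0.78, -0.28 and -0.63. In susceptible mice Atf4 came to -0.43 with the covariate and to -0.71 without PFC susceptible replicate 1, the library of lowest background.

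The stress effects of the regions were also set against each other in a single model. For susceptible mice the difference of effects (NAc minus PFC) was -0.77 ± 0.39 for Phgdh and -0.52 ± 0.29 for Psat1. No member was at an unadjusted p under 0.05 there with Asns left aside, beside 1.38% of all genes. For resilient mice the difference was -0.94 ± 0.42 for Atf5, -0.87 ± 0.41 for Phgdh and -0.63 ± 0.31 for Psat1. These 3 of 10 were at an unadjusted p under 0.05, beside 3.45% of all genes. Without PFC resilient replicate 2, a library of low background, they came to -0.53, -0.46 and -0.33. Phgdh and Psat1 had an r of 0.94 over the libraries, so they are not separate differences. The smallest adjusted p was 1.00 and 0.849 in edgeR. Astrocyte markers gave a difference of the same sign in 20 of 20 genes in both (medians -0.81 and -1.27). With the marker components Phgdh came to -0.21 in susceptible and -0.10 in resilient mice, and Psat1 to -0.15 and -0.09.

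The rest of the pathway was read from 5 gene lists, in which no gene was called in any comparison. Of 17 genes of eIF2, its kinases, its phosphatase and its exchange factor, 15 were lower in resilient than control NAc (median -0.17), and 4 of them, with none higher, were at an unadjusted p under 0.05. They were Impact (-0.44 ± 0.18), an inhibitor of the amino acid sensor GCN2, Ppp1r15a (-0.56 ± 0.24), the stress-induced subunit of the eIF2 phosphatase, and the exchange factor subunits Eif2b4 (-0.41 ± 0.19) and Eif2b5 (-0.33 ± 0.16). Of 20 cytosolic aminoacyl-tRNA synthetases 20 were lower (median -0.14), with Aars at -0.35 ± 0.15 the 1 at that p. Of 17 amino acid transporters 12 were lower (median -0.24), with Slc43a2 at -0.45 ± 0.16 and Slc38a9 at -0.24 ± 0.10. Of 24 other ATF4 targets and partners 17 were lower (median -0.15), with Sesn3 at -0.65 ± 0.25. The other serine, glycine and one-carbon genes were split, with 10 higher and 11 lower (median -0.08) and 0 at that p. The median of all genes was 0.01, and 6.14% of all genes were at that p. In the same comparison astrocyte markers were lower for 19 of 20 genes (median -0.54) and oligodendrocyte markers for 18 of 18 (median -0.94). Neuron markers were split, with 9 higher and 9 lower (median 0.03). Background was higher in resilient mice, as given above. The part of these measures in the list values was not tested.

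In susceptible against control NAc these lists held 0 genes at an unadjusted p under 0.05, beside 3.02% of all genes. In susceptible against resilient NAc 21 of 24 other ATF4 targets were higher (median 0.19, all genes 0.02), with the 1 at that p, Nupr1, a stress-induced chromatin protein, at 0.38 ± 0.16, beside 2.90% of all genes. Astrocyte and oligodendrocyte markers were higher there too, as given above. In PFC, 19 of these 24 were higher in susceptible than control mice (median 0.22, all genes -0.01), with 0 at that p, and astrocyte markers were higher for 20 of 20. Eif2ak2, the kinase PKR that phosphorylates eIF2, was at 0.38 ± 0.17 there. It was the 1 of 17 genes of its list at that p, and the other lists held none, beside 0.482% of all genes. In susceptible against resilient PFC the stress hormone gene Gdf15 was at 1.38 ± 0.64, the 1 of 24 other ATF4 targets at that p. The serine dehydratase Sds was at 0.96 ± 0.36, the 1 of 21 serine, glycine and one-carbon genes. The remaining lists held none, beside 0.572% of all genes. Nothing is read from counts this small.

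Between resilient NAc and PFC the tRNA synthetases were lower in NAc for 20 of 20 genes (median -0.32, all genes 0.06), 8 of them at an unadjusted p under 0.05, beside 14.6% of all genes. Sars was at -0.72 ± 0.24 and Nars at -0.69 ± 0.28. Of 17 transporters 13 were lower and 4 higher, and 4 of the lower ones were at that p. They were Slc3a2 (-0.96 ± 0.39), Slc38a3 (-0.94 ± 0.41), Slc7a5 (-0.55 ± 0.25) and Slc1a4 (-0.73 ± 0.34). Of 24 other ATF4 targets 16 were lower and 8 higher, with 4 at that p, a share close to that of all genes. Among them Vegfa was at -1.70 ± 0.46 and Map1lc3b at -1.17 ± 0.40. Of 17 genes of eIF2 and its regulators 13 were lower and 4 higher, with 3 at that p. One-carbon genes differed in both directions: Shmt1, the cytosolic form of Shmt2, was at 0.49 ± 0.21 and Mthfd2 at 0.47 ± 0.22, while Psph, the last step of serine synthesis, was at -0.35 ± 0.17. Astrocyte markers and background differed between these groups as given above.

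Across the 39 libraries, after removing group means, the 10 members did not vary as a single block. Of 45 pairs 20 had a Pearson r above 0, and the median was -0.09. Phgdh and Psat1 had the highest r, 0.94, and Atf4 went with Psat1 (0.84), Phgdh (0.82) and Ddit3 (0.76). Trib3 went with Chac1 (0.52) and Sesn2 (0.52) and against Atf4 (-0.57). Asns was close to unrelated to Atf4 (-0.14), and its highest r among the members was with Shmt2 (0.40). These values are descriptions over libraries that differ in depth and background.

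Atf4, Phgdh, Psat1 and Ddit3 had r of -0.83, -0.69, -0.75 and -0.79 with the background of the library, and 0.90, 0.95, 0.94 and 0.69 with the mean of 20 astrocyte markers. Atf5 and Shmt2 had the same signs, -0.54 and -0.56 with background and 0.51 and 0.46 with the markers. Trib3, Chac1 and Sesn2 had the opposite signs, 0.55, 0.41 and 0.28 with background and -0.58, -0.51 and -0.36 with the markers. Asns had -0.04 and -0.20. The markers themselves had an r of -0.74 with background.

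**Figure D4:**
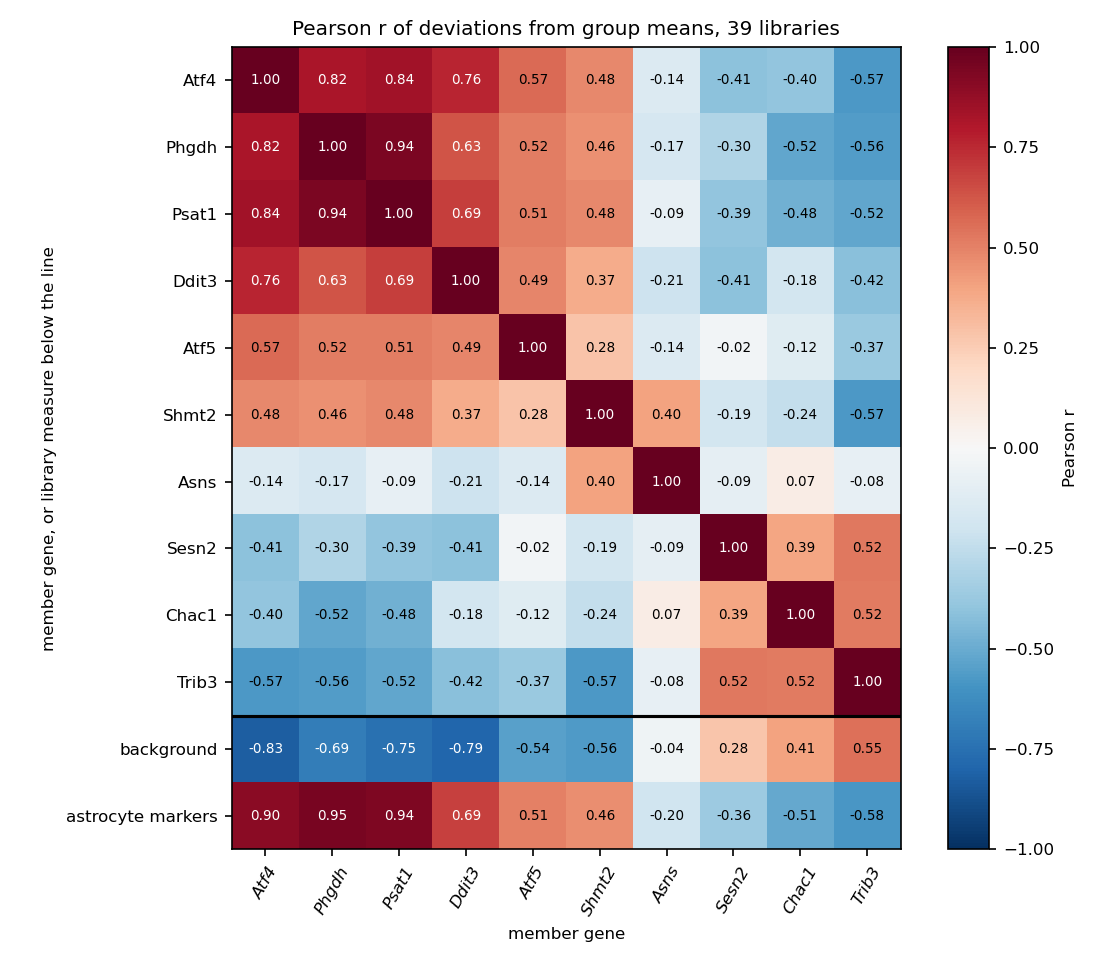
Pearson r between members (both axes) of the deviation of log2 CPM from the group mean over 39 libraries, with the receptor background and the mean of 20 astrocyte markers in the lower rows. Phgdh, Psat1, Atf4 and Ddit3, and less closely Atf5 and Shmt2, go with each other and with the astrocyte markers, Trib3, Chac1 and Sesn2 go the other way, and Asns is near 0 with both.

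The genes most like Phgdh, among 6235 expressed candidates, were Slc7a10 (r = 0.96), a transporter of small neutral amino acids that include serine, Fads2 (0.96), Plpp3 (0.96), Srebf1 (0.95) and Sash1 (0.95). For Asns the closest of 6236 candidates were Ercc3 (0.81), Aldh3a2 (0.75), Usp28 (0.74), Zfp658 (0.72) and Supt7l (0.72), over the same 39 libraries.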

How the data were processed

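Sorted astrocyte RNA of 39 libraries was made into total RNA libraries with a stranded picogram-input kit, per the labels' protocols. The deposited counts are whole numbers of reads per gene, made by the authors with featureCounts on mm10 per the submitters' processing notes. Aligner, versions and strand setting: not given in the sources used here. In the deposited FPKM each count is divided by its library total and by the whole gene span, which matched GENCODE M21 for 54229 of 54229 genes compared (relative tolerance 1e-06). The main test was edgeR 4.0.16's quasi-likelihood test of the counts (R 4.3.3; TMM scaling, default count filter by group, robust dispersion, Benjamini-Hochberg adjustment over all genes tested, two-sided), with the 3 conditions of a region fitted together and all 39 libraries fitted together for regions and their differences. The standard error is the fold change divided by the square root of F. Expression levels are as deposited. Limma 3.58.1 and DESeq2 1.42.0 served as alternatives. The test was tried on simulated counts for susceptible against control mice. Of genes changed 2-fold it recovered 59 of 67 in NAc and 18 of 67 in PFC. At 1.5-fold it recovered 25 of 67 and 0 of 67, with 4 and 7 false calls in all. Only genes of higher count level were changed there. A member that was not called may therefore still differ by such a fold, above all in PFC.

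Replicate numbers in the library names were shared between groups. Same-numbered PFC libraries deviated together in all pairs (lowest r 0.149 over 16744 genes). Differently numbered libraries were not compared and the labels state no pairing, so whether same-numbered libraries are paired is not settled. The main fits hold no block, so their errors leave any such pairing out, and the blocked fit is an alternative. In NAc 5, 2 and 4 of 7 pairs had an r over 0.1 in the 3 comparisons.

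The members and all gene lists were chosen with earlier results of these data known. Fold changes are named for members at an unadjusted p under 0.05 and for the 3 of smallest p in each comparison, and some others are given beside them for context. From each list at most 4 genes per comparison are named, by smallest p. Promoters were taken from RefSeq, and all 10 members matched.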

Additional observations from a re-analysis of the deposited data

Results flagged for a closer look

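Each member was examined in each group for a library far from the others, by the gap to its nearest neighbour over the range of the group. Among 60 such sets 8 values stood apart, in 5 libraries. The cutoff would be passed by about 1 in 20 independent sets of normally spread values. These sets share their libraries and are not independent, so no excess is read from the 8. NAc control replicate 3, the shallowest library, had 4 of them: Atf4 at 15.3 FPKM (34 counts, next 7.59), Ddit3 at 2.31 (12 counts, next 1.49), Atf5 at 1.45 (6 counts, next 0.914) and, as the lowest of its group, Shmt2 at 0.798 (4 counts, next 1.18). Phgdh was the highest of its group at 3.50 FPKM in PFC resilient replicate 2 (next 1.82) and the lowest at 1.25 in PFC susceptible replicate 3 (next 2.32). Ddit3 was lowest at 0.869 FPKM in NAc resilient replicate 6 (next 1.17), and Shmt2 highest at 2.09 in NAc resilient replicate 1 (next 1.37).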

How the results depend on the processing

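No member was called in 313 of 313 alternative fits of a comparison, which covered scaling, count filters, DESeq2, limma-voom, limma-trend with both pseudocounts, background and marker covariates, the replicate blocks, other sets of libraries and each library left out. The number of members at an unadjusted p under 0.05 ran from 0 to 6 of 10 in these fits. The 6 was reached between NAc and PFC in resilient mice, where 14.6% of all genes were at that p in the main fit. Some of these counts hold Asns, and nothing is read from the range. Of 924 alternative values of the 33 fold changes named by rule, 922 kept their direction. The rule picked these folds by small p in the same data, and 507 of the values leave out only 1 library. A kept direction is therefore no independent support, and several values shrank, as given above. The 2 that turned are both of Phgdh in PFC resilient against control mice (0.38): -0.00965 with the marker components and -0.0522 without PFC resilient replicate 2, the lowest of a range up to 0.585 with 1 library left out, and the cause was not tested. With the replicate block, Asns in PFC susceptible against control mice was at -0.79, and the 6 comparisons within regions held 7 of 60 member values at an unadjusted p under 0.05, 2 of them Asns, beside 3.68% of all gene values. As these comparisons share libraries, no excess is read from the count. The replicate blocks changed no call. Of 60 group levels none moved by 1 SD when scaled by the library total. With only genes over 2 times background tested, Asns had no value, since its mean of 0.632 FPKM is below that limit. Levels near background limit what Asns, Sesn2, Trib3 and Atf5 can show.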
